A study of Caenorhabditis elegans with 95 samples.

Results

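The 85 recombinant inbred advanced intercross lines (RIAILs) of *C. elegans* were sorted into CB4856-type and N2-type by the read count of 1 gene that lies near *hsp-60* on chromosome III, *Y82E9BL.9* (WBGene00023395). The gene chosen by the rule is a pseudogene at 1333921 to 1335467 on the minus strand of chromosome III (WBcel235), and the lines were selected on its CPM, the read count scaled to the total count of its library. A line at or above 10 CPM was placed in the high group and a line under 10 CPM in the low group, and each group took the name of the parental strain with the like level. This gave 52 CB4856-type and 33 N2-type lines, together 85 of the 95 libraries. Each RIAIL carries its own mix of alleles from an intercross of CB4856, a Hawaiian isolate, and QX1430, a strain with an N2 Bristol background and, by the study's description, deletions of confounder genes. The parental libraries were from CB4856 (6 libraries) and from N2 (4 libraries), and N2 is not QX1430.

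All 95 libraries were made from whole worms exposed to 15 μg/mL doxycycline (Dox), so strains and types were compared under Dox and not with untreated worms. The methods of the study describe L4 worms collected after synchronized larvae had been kept on Dox, while the labels describe a protocol that includes 5FU, a blocker of DNA synthesis, and which of these applies to the libraries was not settled. Each RIAIL had 1 library, so the lines of a type are its replicates, and they differ from each other over the rest of the genome. Nothing in the labels says that the libraries of a parental strain came from separate cultures, so a p-value between the strains measures how far these libraries spread, and that spread may be technical. Fewer cells that express a gene and less RNA per cell cannot be told apart in such libraries. The total count was 22121202 to 23879871 in CB4856-type and 22146618 to 23782226 in N2-type lines, and no difference between the means was found (two-sided permutation test, p = 0.477).

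*hsp-60* encodes the mitochondrial chaperonin, which folds proteins imported into the mitochondrial matrix, and *hsp-6* encodes the mitochondrial member of the HSP70 family. Both are classical reporters of the mitochondrial unfolded protein response (UPRmt), a programme that the transcription factor ATFS-1 starts when mitochondrial protein folding or import is impaired. Dox blocks translation on mitochondrial ribosomes and thereby disturbs the balance between subunits made in mitochondria and subunits made in the cytosol. In a RIAIL, alleles that lie close together on a chromosome tend to be inherited together, so the type at 1 gene also describes its neighbours, with an accuracy that falls as the distance grows.

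*Y82E9BL.9* was at 34.9 CPM in the lowest, 67.04 CPM in the median and 141 CPM in the highest CB4856-type line, and at 0.696, 1.23 and 3.74 CPM in the lowest, median and highest N2-type line. The parental libraries had 46.1 to 62.7 CPM in CB4856 and 2.36, 1.15, 1.43 and 0.699 CPM in N2. Just inside the high group were QX508 at 34.9 CPM and QX559 at 35.02 CPM, and just below the threshold were QX560 at 3.74 CPM and QX550 at 3.72 CPM. No line lay between 3.74 and 34.9 CPM, and thresholds of 5 and 20 CPM gave the same groups. These values chose the lines and support nothing further.

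**Figure D1:**
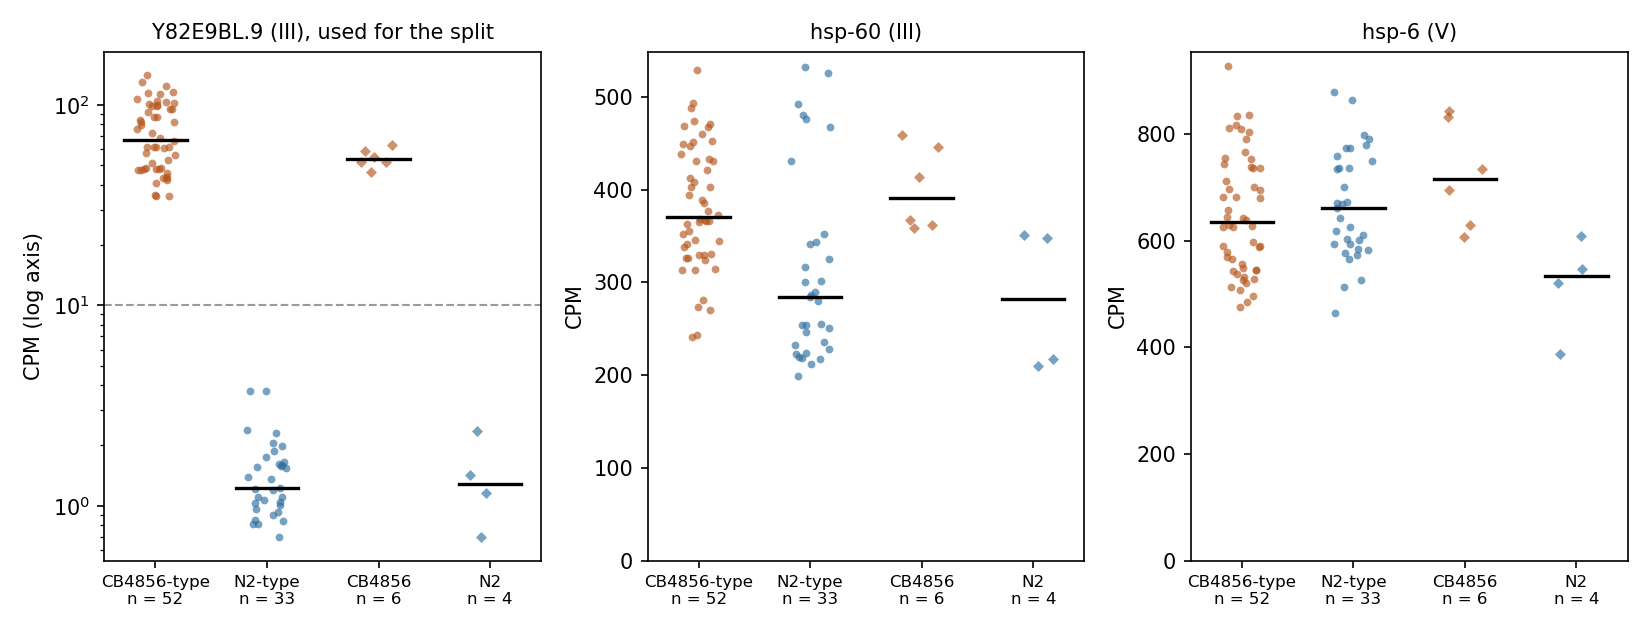
CPM of *Y82E9BL.9* (log axis, dashed line at the threshold of 10 CPM), *hsp-60* and *hsp-6* in each CB4856-type line (n = 52), N2-type line (n = 33), CB4856 library (n = 6) and N2 library (n = 4), with a black bar at each median. The groups of lines are apart for *Y82E9BL.9* because it was used to split them, and they overlap for *hsp-60* (medians of 371 and 284 CPM) and *hsp-6* (635 and 661 CPM).

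One line did not go with its type in the genes next to *Y82E9BL.9*. QX571, in library series E, had 82.3 CPM of *Y82E9BL.9* and was therefore CB4856-type. Of the 20 genes within 100 kb that were called between the types, it was closer to the N2-type median for 15, against 0 to 8 in the other CB4856-type lines (*Y82E9BL.9* itself was left out). *fbxa-138*, a gene for an F-box protein, was at 1.56 CPM in QX571, against 0 to 0.516 CPM in the other CB4856-type lines and 0.176 to 1.95 CPM in N2-type lines. *pals-18* was at 13.2 CPM in QX571, against 1.62 to 12.1 CPM in the other CB4856-type lines and 5.26 to 14.1 CPM in N2-type lines. QX571 also had the highest level of *pals-22*, a regulator of the intracellular pathogen response that lies 1201.5 kb to the left, with 48.1 CPM against 0.879 to 3.52 CPM in the other CB4856-type lines and 0.967 to 4.47 CPM in N2-type lines. Among N2-type lines, QX510 was closest to the other type, with 11 of the 20 genes closer to the CB4856-type median, against 0 to 6 in the others. Results that rest on QX571 are given with and without it, an alternative chosen after the data were seen.

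*hsp-60* (WBGene00002025, III 1619742 to 1625803, plus strand) starts 286 kb to the right of *Y82E9BL.9* and was not used by the rule. It was at 241 CPM in the lowest, 371 CPM in the median and 529 CPM in the highest CB4856-type line, and at 199, 284 and 532 CPM in the lowest, median and highest N2-type line. The types overlapped over most of their range, although 47 of 52 CB4856-type lines were above the N2-type median and 26 of 33 N2-type lines were at or below the CB4856-type median. The log2 fold change, CB4856-type over N2-type, was 0.29 (standard error 0.080, unadjusted p = 0.0006, adjusted p = 0.129 over 15819 genes, edgeR's quasi-likelihood test), so *hsp-60* did not pass the threshold of 0.05 among all genes. As a single value, the mean log2 CPM was 8.55 ± 0.29 in CB4856-type (SD, n = 52) and 8.22 ± 0.46 in N2-type lines (SD, n = 33), a difference of 0.33 (two-sided permutation test, p = 0.00012, adjusted p = 0.0003 over the 5 measures tested in this way). The adjusted p across genes ran from 2.33e-10 to 0.753 over 18 alternatives, with log2 fold changes of 0.24 to 0.60, and was under 0.05 in 4 of them. The lowest came from a fit that left out 28 lines, among them all 7 N2-type lines with *hsp-60* above the CB4856-type median.

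The difference in *hsp-60* was not alike in all library series, the groups given by the letter of the library name. In series A *hsp-60* was at 346 to 409 CPM in 4 CB4856-type lines and 212 to 255 CPM in 3 N2-type lines, with no overlap. The medians of CB4856-type and N2-type lines were 377 and 250.5 CPM in series B, 328 and 220 CPM in series C, 421 and 285 CPM in series D, 403 and 329 CPM in series F, and 351 and 256 CPM in series G. Each of these 6 series had its higher mean in the CB4856-type lines. In series E alone the order was the other way, with a median of 453 CPM in 5 CB4856-type lines and 478 CPM in 6 N2-type lines. There the lowest CB4856-type line was QX571 with 243 CPM, and the other 4 were at 451 to 468 CPM.

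**Figure D2:**
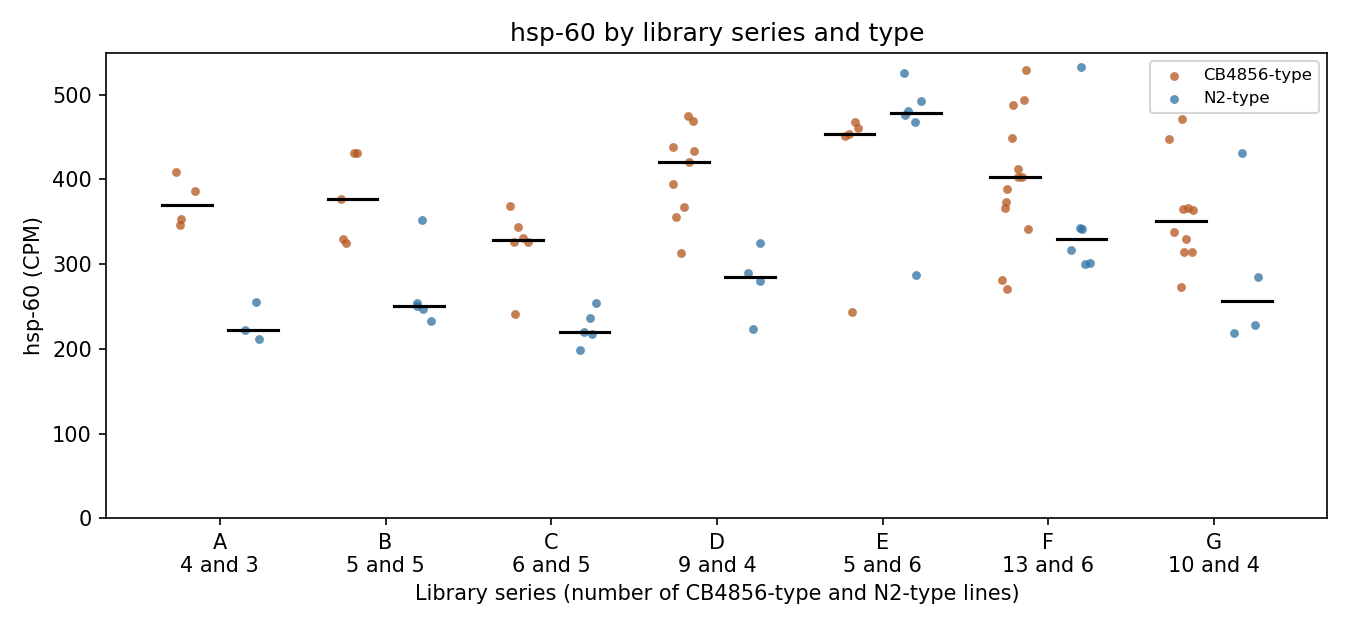
CPM of *hsp-60* in each RIAIL by library series A to G, with CB4856-type lines on the left and N2-type lines on the right of each pair and a black bar at the median. In 6 series the CB4856-type median is above the N2-type median, and in series E the medians are 453 and 478 CPM.

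Without series E the log2 fold change of *hsp-60* was 0.44 (adjusted p = 6.53e-05, edgeR), and with series as a covariate it was 0.34 (adjusted p = 0.0021, edgeR). Leaving out any other series kept the adjusted p above 0.05, and without QX571 it was 0.0806. The dependence of the difference between types on series, tested as an interaction after the data were seen, had p = 0.00709 for *hsp-60* and an adjusted p of 0.328 (edgeR), and 38 of 15819 genes passed. Without series E this p was 0.125 for *hsp-60*. In series E *hsp-6* was at 526.5 to 836 CPM in CB4856-type and 774 to 880 CPM in N2-type lines. The part of the series in the result, other than by these fits, was not tested.

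The N2-type lines with high *hsp-60* shared features that the rule did not use. Of 33 N2-type lines, 7 were above the CB4856-type median, 5 in series E (467 to 525.9 CPM), QX567 in series F (532 CPM) and QX498 in series G (431 CPM). All 7 also had high *hsp-6*, at 736 to 880 CPM against a median of 661 CPM over all N2-type lines. All 7 were nearer to the CB4856 than to the N2 mean of *R155.4*, a pseudogene 643 kb to the right of *Y82E9BL.9* and thus on the far side of *hsp-60*. Whether their *hsp-60* goes with the type at *R155.4* or with the level of *hsp-6* was not tested. *R155.4* was at 6.56 to 11.3 CPM in CB4856 and at 2.53, 1.62, 1.56 and 1.22 CPM in N2, and 6 of the 7 lines lay between these ranges, at 4.85 to 6.21 CPM. By the nearer parental mean of TMM-normalized log2 CPM, 11 of the 33 N2-type lines were CB4856-type at *R155.4*. *hsp-60* was at 219 to 532 CPM (median 467) in these 11 lines and at 199 to 343 CPM (median 252) in the 22 N2-type lines that were N2-type at *R155.4* as well. Among CB4856-type lines, *hsp-60* was at 313 to 529 CPM (median 389) in the 35 lines that were also CB4856-type at *R155.4* and at 241 to 471 CPM (median 353) in the 17 that were N2-type there. *hsp-6* had medians of 774 CPM in the 11 and 611 CPM in the 22 N2-type lines, and without series E 627 CPM in 5 and 611 CPM in 22 lines. Series E contributed 6 of the 11 lines, and its 6 N2-type lines were all CB4856-type at *R155.4*. In the other series the medians of *hsp-60* were 352 CPM in 5 such lines and 252 CPM in the 22. These groups were looked at after the data were seen and have no test, and the levels of *R155.4* that set them overlap as CPM without TMM (3.57 to 10.5 CPM in the 11 lines and 0.943 to 3.82 CPM in the 22). At this border QX495, in series E, and QX494 were placed as CB4856-type at 3.57 and 3.73 CPM and QX505 as N2-type at 3.82 CPM, so their types at *R155.4* are uncertain. The summed level of 21 molting genes, which follow larval stage, had medians of 7451 CPM in the 11 and 9411 CPM in the 22 N2-type lines, and of 6227 CPM in the 35 and 9071 CPM in the 17 CB4856-type lines.

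*hsp-6* (WBGene00002010, chromosome V) was at 476, 635 and 928 CPM in the lowest, median and highest CB4856-type line and at 464, 661 and 880 CPM in N2-type lines. Its log2 fold change was -0.04 with a standard error of 0.055 (adjusted p = 0.945, edgeR), and the types overlapped over nearly their whole range. Set against *hsp-6* in the same library, *hsp-60* was lower by 0.77 ± 0.25 in CB4856-type (SD, n = 52) and by 1.15 ± 0.29 in N2-type lines (SD, n = 33) on the log2 scale. The difference of 0.38 had a permutation p of 2e-05, the smallest that 100000 resamples can give in a two-sided test (adjusted p = 0.0001 over 5 measures). It had the same sign in 7 of 7 series, and in series E it was 0.16.

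Between the parental strains both genes were higher in CB4856. *hsp-60* was at 358 to 459 CPM in CB4856 (median 391) and at 218, 351, 348 and 210 CPM in N2, with all 6 CB4856 libraries above all N2 libraries, and the log2 fold change was 0.61 (adjusted p = 0.0296, edgeR). With the batch number as a replicate block over 8 libraries (2 of the 4 pairs lie in different library series) it was 0.66 (adjusted p = 0.0298), and the fit of those 8 without the block gave 0.62 (adjusted p = 0.0853), and the call was lost without CB4856 replicate 2, 3 or 6 or N2 replicate 4. *hsp-6* was at 608 to 844 CPM in CB4856 and at 388, 547, 608 and 520 CPM in N2 (log2 fold change 0.59, adjusted p = 0.0112, edgeR), and this call was lost with the replicate block (0.53, adjusted p = 0.0601). The difference between the types minus the difference between the parental strains was -0.27 for *hsp-60* (adjusted p = 0.502) and -0.58 for *hsp-6* (standard error 0.17, adjusted p = 0.0132, interaction in edgeR). For *hsp-6* the types differed by only -0.04, so its value mostly restates the difference between the strains. In the parental strains the difference of *hsp-60* relative to *hsp-6* was 0.05, with -0.85 ± 0.20 in CB4856 (SD, n = 6) and -0.90 ± 0.29 in N2 (SD, n = 4) on the log2 scale.

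Across all genes, the split by *Y82E9BL.9* marked a stretch of chromosome III. Of 15819 genes tested (*Y82E9BL.9* left out), 61 were called at an adjusted p under 0.05 from edgeR, which is 0.386%. Of these, 22 were higher (0.139%) and 39 were lower (0.247%) in CB4856-type lines. Within 2 Mb of *Y82E9BL.9*, 54 of 450 genes were called, 16 higher and 38 lower, and on the rest of chromosome III 0 of 1966 (50 at an unadjusted p under 0.05, and 0 with DESeq2 or limma-voom). On the other chromosomes 7 of 13384 were called. The called genes on III ran from *npr-30*, 1330.6 kb to the left of *Y82E9BL.9*, to *R155.4*, 643 kb to the right. Within 100 kb 20 of 43 genes were called, from 100 to 250 kb 6 of 31, from 250 to 500 kb 17 of 84, from 500 kb to 1 Mb 4 of 118 and from 1 to 1.5 Mb 7 of 113. To the left of *Y82E9BL.9* 36 of 203 genes were called, between it and *hsp-60* 17 of 37, and from *hsp-60* to 2 Mb on the right 1 of 210. The absolute log2 fold changes of the 54 genes ran from 0.19 to 3.88, and for 39 of them the sign was the same in all 7 series. Called genes were chosen on these same lines, so agreement of sign between series partly follows from the call. None of the 54 had types that did not overlap. Without QX571 68 genes were called, 60 of them among the 61.

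**Figure D3:**
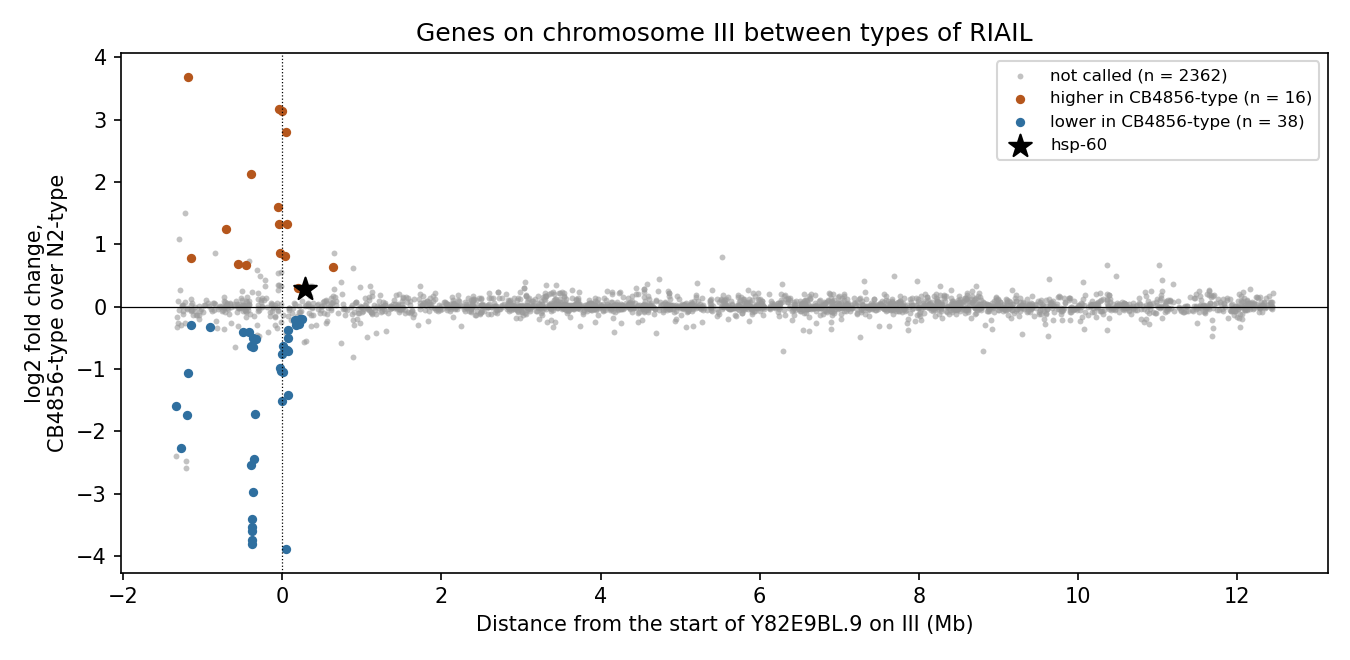
Log2 fold change of each tested gene on chromosome III, CB4856-type over N2-type lines, against its distance from the start of *Y82E9BL.9* in Mb. Called genes (16 higher in orange, 38 lower in blue, adjusted p under 0.05 from edgeR) lie between 1330.6 kb on the left and 643 kb on the right, *hsp-60* (star, not called) is at 0.29, and grey points are genes not called.

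Near *Y82E9BL.9* lie clusters of F-box genes of the *fbxa* group, whose products are thought to select substrates for ubiquitin ligases, and of *pals* genes, a family expanded in *C. elegans*. Of 39 *fbxa* genes tested within 2 Mb, 14 were called (3 higher and 11 lower in CB4856-type lines), and of 10 *pals* genes 5 were called (2 higher and 3 lower). Of the other 401 genes there, 35 were called. Elsewhere in the genome 0 of 82 *fbxa* genes (5 at an unadjusted p under 0.05) and 0 of 13 *pals* genes (2 at an unadjusted p under 0.05) were called by edgeR, nor were any by DESeq2 or limma-voom. Of all genes, 7 of 13384 were called on other chromosomes and 0 of 1966 on the rest of III. The counts of 0 therefore do not set these families apart from other genes there. These families were singled out after their values were seen. Members of both families are similar in sequence, and the sources used here do not give how reads with several matches were counted, so the counts of single members are uncertain.

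Among genes higher in CB4856-type lines with a mean CPM of at least 1, *fbxa-36* had the largest log2 fold change. It was at 3.31, 15.4 and 27.7 CPM in the lowest, median and highest CB4856-type line and at 0.387, 1.07 and 14.3 CPM in N2-type lines. Of the CB4856-type lines 36 were above every N2-type line, and the N2-type line at 14.3 CPM was QX510. Its log2 fold change was 3.18 with a standard error of 0.21 (adjusted p = 2.54e-21, edgeR), and between the parental strains it was 3.57, with 8.81 to 24 CPM in CB4856 and 1.90, 0.853, 0.780 and 1.35 CPM in N2. *fbxa-30*, 59.5 kb to the left, had medians of 4.68 CPM in CB4856-type and 1.76 CPM in N2-type lines (log2 fold change 1.605, adjusted p = 2.49e-11). In the parental strains it was at 5.04 to 9.54 CPM in CB4856 and 0.253, 0.171, 0.303 and 0.480 CPM in N2, so the N2-type median was above all N2 libraries. The parental log2 fold change was 4.49, and the difference between the types was smaller by 2.84 (adjusted p = 0.00087, interaction in edgeR).

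Below a mean CPM of 1, *T17A3.8*, a pseudogene 1186 kb to the left that is named after its values were seen, differed more than *fbxa-36*. It was at 0.0435, 1.18 and 2.90 CPM in the lowest, median and highest CB4856-type line and at 0, 0.0435 and 0.747 CPM in N2-type lines (log2 fold change 3.69, adjusted p = 5.64e-17, edgeR), and 44 CB4856-type lines were above every N2-type line. *Y82E9BL.19*, *pals-40* and *fbxa-56*, named in the same way, had log2 fold changes of 3.15, 2.80 and 2.13.

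Other genes with a mean CPM of at least 1 that were higher in CB4856-type lines had smaller log2 fold changes than *fbxa-30*. The pseudogene *ZC47.12* had a log2 fold change of 1.33 (medians of 2.79 and 0.948 CPM in CB4856-type and N2-type lines), *Y82E9BL.12* of 0.86, the pseudogene *F40G9.4* of 0.78, *T24C4.5* of 0.66 and *R155.4* of 0.64 (adjusted p = 0.0347). The call of *R155.4* was lost with the first principal component as a covariate (adjusted p = 0.0793), with no filter on low counts (adjusted p = 0.0505) and without series A, C, D, F or G, and that of *Y82E9BL.12* without series F. *mtg-1*, named for a mitochondrial GTPase that in yeast and human takes part in the assembly of mitochondrial ribosomes, lies 200 kb to the right of *Y82E9BL.9* and before *hsp-60*. It was at 9.35, 12.9 and 22.6 CPM in the lowest, median and highest CB4856-type line and at 8.44, 10.5 and 15.2 CPM in N2-type lines. This was a log2 fold change of 0.30 with a standard error of 0.054 (adjusted p = 0.000119, edgeR), and between the parental strains it was 0.43 (adjusted p = 0.0215), with 11.5 to 15.2 CPM in CB4856 and 9.91, 11.5, 10.96 and 10.6 CPM in N2. The highest line was again QX571, without which the adjusted p was 8.13e-05.

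*T19C3.5* and the long intergenic non-coding RNA *linc-24* were higher in CB4856-type lines, with parental values of another order or size. *T19C3.5*, which overlaps another gene on its strand, was at 0.215, 5.85 and 9.93 CPM in the lowest, median and highest CB4856-type line and at 0.210, 0.775 and 8.57 CPM in N2-type lines (log2 fold change 1.25, adjusted p = 0.0101, edgeR). The N2 libraries, at 4.01, 5.33, 4.77 and 7.16 CPM, were above the N2-type median, and CB4856 was at 5.83 to 9.75 CPM (parental log2 fold change 0.55, adjusted p = 0.0784). The difference between types and strains was 0.75 and was not called (adjusted p = 0.578, interaction in edgeR), and the call between the types was lost without series C, E, F or G. *linc-24* had medians of 2.39 CPM in CB4856-type and 1.38 CPM in N2-type lines (log2 fold change 0.81, adjusted p = 0.0006). In the parental strains it was lower in CB4856, with 0.723 to 1.34 CPM against 1.65, 1.88, 1.65 and 2.31 CPM in N2 (log2 fold change -0.77, adjusted p = 0.0352). The difference between the types was higher than that between the strains by 1.64 for *linc-24* (adjusted p = 0.00993, interaction in edgeR).

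The 6 genes with a mean CPM of at least 1 that were lowest in CB4856-type lines by log2 fold change lay close together. *fbxa-60* and *fbxa-67*, 389 and 385.4 kb to the left of *Y82E9BL.9*, had log2 fold changes of -2.54 and -3.41 between the types (adjusted p = 5.94e-13 and 5.73e-09, edgeR). *fbxa-67* was at 0, 0.173 and 11.13 CPM in the lowest, median and highest CB4856-type line and at 0.0439, 9.72 and 13.9 CPM in N2-type lines. CB4856 had 0.129 to 0.388 CPM of it, and N2 had 9.95, 5.55, 5.85 and 5.41 CPM. The adjacent *fbxa-11*, *fbxa-10*, *T12B5.15* and *T12B5.14* had log2 fold changes of -3.75, -3.53, -3.59 and -3.81. Their counts were 0 in 46, 48, 42 and 45 of the 52 CB4856-type lines and in 4 of the 33 N2-type lines for each gene. In CB4856 *fbxa-10*, *T12B5.15* and *T12B5.14* had 0 counts in all 6 libraries. Reads of all strains were aligned to the same genome, WBcel235. Whether reads from CB4856 alleles were lost in alignment was not tested, so low counts need not be low expression. The same limit holds for the other genes called lower in CB4856-type lines.

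*trp-2*, which encodes a cation channel of the TRPC family, was also lower in CB4856-type lines. It was at 1.32, 2.62 and 13.7 CPM in the lowest, median and highest CB4856-type line and at 2.63, 11.2 and 17.8 CPM in N2-type lines, so all 33 N2-type lines were above the CB4856-type median. Its log2 fold change was -1.71 with a standard error of 0.16 (adjusted p = 3.24e-14, edgeR), and that between the parental strains was -2.02, with 2.45 to 2.72 CPM in CB4856 and 15.6, 8.36, 9.75 and 11.5 CPM in N2. The pseudogene *R06B10.2* had a log2 fold change of -2.44, *C29F9.2* of -1.74, and *npr-30*, named for a neuropeptide receptor, of -1.599 at the left end of the chromosome. For these 3 genes 2 to 9 N2-type lines lay above every CB4856-type line, and the call of *C29F9.2* was lost without series C.

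To the right of *Y82E9BL.9*, *Y82E9BR.14*, singled out after its values were seen, was at 48.6, 56.6 and 78.5 CPM in the lowest, median and highest CB4856-type line and at 49.3, 81.8 and 109 CPM in N2-type lines. It fell by 0.50 on the log2 scale with a standard error of 0.040 (adjusted p = 3.68e-17, edgeR), and the parental value was -0.46. *pals-18*, singled out in the same way, had medians of 3.51 CPM in CB4856-type and 10.7 CPM in N2-type lines (log2 fold change -1.41, adjusted p = 2.42e-18), and it overlaps *pals-19* by 53 bases on the same strand, so reads there cannot be told apart.

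The 5 tested genes on either side of *hsp-60* differed less than *hsp-60* in all but 2 cases, and 1 of the 10 was called. *Y22D7AL.7*, 243 kb from *Y82E9BL.9*, had a log2 fold change of -0.19 (adjusted p = 0.0159, edgeR), with medians of 5.91 CPM in CB4856-type and 6.65 CPM in N2-type lines, and the call was lost without series B or G. *Y22D7AL.10*, which encodes a homologue of the co-chaperonin HSP10 and lies next to *hsp-60* on the other strand, was at 180, 241 and 372 CPM in the lowest, median and highest CB4856-type line and at 169, 247 and 323 CPM in N2-type lines. Its log2 fold change was 0.01 with a standard error of 0.060 (adjusted p = 0.973), and between the parental strains it was 0.00 (adjusted p = 0.989). *sms-3*, named for a sphingomyelin synthase, had a log2 fold change of 0.10, *Y22D7AL.6* of 0.25, *cht-4* of 0.04, *Y22D7AL.15* of 0.01, *Y22D7AL.16* of 0.06 and *Y22D7AL.4* of 0.03 (adjusted p = 0.945 to 0.972). *Y22D7AL.9* and *Y22D7AL.11* had larger values of -0.56 (adjusted p = 0.55) and -0.54 (adjusted p = 0.945). Without QX571 *Y22D7AL.9* was at -0.68 and passed (adjusted p = 0.0428). It also passed without series E, at -0.82 (adjusted p = 0.0041, edgeR), a fit in which *hsp-60* passed with the opposite sign. With series or the first principal component as a covariate *Y22D7AL.9* was at -0.42 and -0.27 and did not pass. *Y22D7AL.4* lies across *Y22D7AL.11* on the other strand, and their reads cannot be told apart without strand.

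Of the 54 called genes within 2 Mb, 51 were tested between the parental strains, where 2524 of 15717 genes (16.1%) were called. The sign of the parental difference was the same for 44 of the 51, and 28 were called, 27 in the same direction. The 1 exception was *linc-24*. The 28 genes are 51.9% of the 54 and 28.9% of the 97 genes called between the strains within 2 Mb, of which 60 were higher and 37 lower in CB4856. In absolute size the difference between the strains was the larger for 28 of the 51 genes. The difference between types and strains was itself called for 8 of the 54 genes (edgeR interaction). Over all genes it was called for 2725 of 17057 (16%). That share mostly follows the difference between the strains, since few genes were called between the types. It is therefore no background for the 54 genes. Besides *fbxa-30*, *linc-24* and *R155.4* the 8 genes included *pals-17*, singled out after its values were seen. *pals-17* was lower in CB4856-type lines, with a median of 5.45 CPM against 8.46 CPM in N2-type lines (log2 fold change -0.69). CB4856 had 5.00 to 7.51 CPM and N2 had 6.83, 5.16, 5.59 and 6.24 CPM, a log2 fold change of 0.13.

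**Figure D4:**
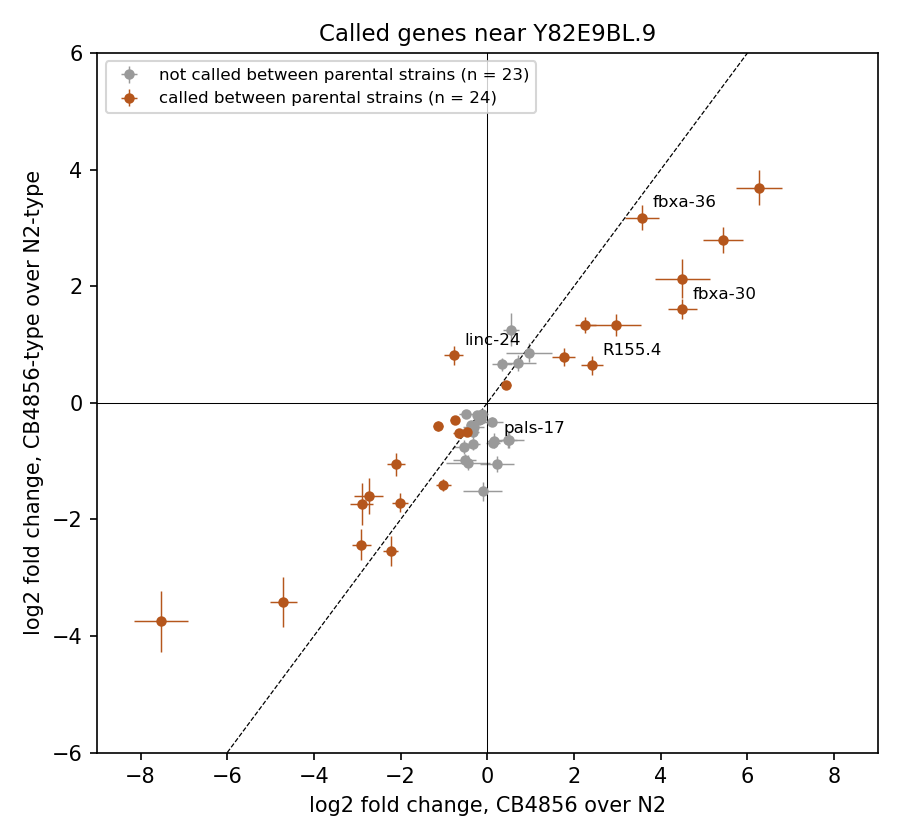
Log2 fold change between types of RIAIL (vertical axis, CB4856-type over N2-type) against that between parental strains (horizontal axis, CB4856 over N2) for 47 called genes within 2 Mb of *Y82E9BL.9*, with standard errors as bars and equal values on the dashed line. The 24 genes called between the strains (orange) lie in the quadrants of equal sign except *linc-24*. *fbxa-30*, *R155.4*, *T17A3.8*, *pals-40* and *fbxa-56* are among those far below the line. Genes with 0 counts in all libraries of a parental strain are left out.

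On the other chromosomes 7 genes were called, 6 higher and 1 lower in CB4856-type lines. Of the 6, 4 were at low counts. The protein-coding gene *T25D1.2* (X) was at 0, 1.02 and 1.59 CPM in the lowest, median and highest CB4856-type line and at 0, 0.0437 and 1.36 CPM in N2-type lines (log2 fold change 2.38, adjusted p = 3.91e-08, edgeR). CB4856 had 0.851 to 1.29 CPM of it and N2 had 0.0422, 0.0427, 0 and 0 CPM. *C36C9.4* (X) had medians of 0.530 and 0.0430 CPM in CB4856-type and N2-type lines, the pseudogene *Y59A8B.5* (V) of 0.767 and 0.128 CPM and *R09H3.3* (X) of 0.646 and 0.300 CPM, with log2 fold changes of 2.30, 1.88 and 0.87. These 4 are named after their values were seen, since their mean CPM is under 1. *C14C6.12* (V), a pseudogene, had a log2 fold change of 2.79 (adjusted p = 0.0167) that rested on QX571, with 131 CPM against 3.84 CPM or less in all other lines, and without it the value was 0.32 (adjusted p = 0.908). *ilys-2* (IV), which encodes an invertebrate-type lysozyme, had a log2 fold change of 1.04 (adjusted p = 0.042), with medians of 2.34 and 1.98 CPM in CB4856-type and N2-type lines and a highest value of 25.4 CPM in QX496. Its call was lost with limma-voom, with series as a covariate, with no filter on low counts (adjusted p = 0.0566), without QX501 and QX505 (adjusted p = 0.0501) and without series B, C, E, F or G.

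The 1 gene that was lower was *algn-9* (II), a homologue of a yeast mannosyltransferase of N-glycosylation. It was at 30.3, 40.3 and 63.3 CPM in the lowest, median and highest CB4856-type line and at 31.5, 49.6 and 66.8 CPM in N2-type lines. Its log2 fold change was -0.24 with a standard error of 0.060 (adjusted p = 0.042, edgeR) and the same sign in 7 of 7 series, and the call was lost with the first principal component (adjusted p = 0.127) or series as a covariate, without QX501 and QX505 (adjusted p = 0.0766) and without series A, B, C, D or G. The parental strains had the opposite order, with 48.6 to 59.8 CPM in CB4856 and 39.1, 34.5, 34.96 and 34.1 CPM in N2 (log2 fold change 0.65, adjusted p = 0.000956). The difference between types and strains was -0.84 (adjusted p = 0.00219, interaction in edgeR).

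In 13 lists of genes, 0 of 182 members tested were called by edgeR, 3 had an unadjusted p under 0.05, and DESeq2 called 0 and limma-voom 2. Over all 15819 genes 61 were called (0.386%) and 648 had an unadjusted p under 0.05, so a count of 0 calls among 182 does not set the lists apart from other genes. Of 15 UPRmt genes, *hsp-60* had the smallest p, and the median log2 fold change of the list was -0.02, against 0.01 over all genes. The protease genes *lonp-1*, *spg-7*, *ymel-1* and *clpp-1* of the mitochondrial quality control system had log2 fold changes of -0.02, -0.07, -0.05 and 0.03. Of 14 regulators of the UPRmt, *atfs-1*, which encodes the transcription factor itself, was at 0.02 and *dve-1*, a homeobox partner, at 0.07. The smallest p in this list was that of *nhr-80*, a nuclear hormone receptor gene that lies 1321.9 kb to the left of *Y82E9BL.9* on III. *nhr-80* averaged 14.6 ± 4.94 CPM in CB4856-type (SD, n = 52) and 18.2 ± 4.38 CPM in N2-type lines (SD, n = 33), with a log2 fold change of -0.32 (adjusted p = 0.128). Without QX571 it was -0.38 and passed (adjusted p = 0.00166). The 26 nuclear genes of oxidative phosphorylation had log2 fold changes of -0.06 to 0.04, and the 11 mitochondrially encoded genes tested -0.20 to 0.03.

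Lists that follow stage, germline and sex were also compared, and their part in the results above was not tested. Of 21 molting genes, 20 had a negative log2 fold change, with a median of -0.33 and 1 member, *fbn-1*, at an unadjusted p under 0.05, and their summed level was 1382 to 20066 CPM (median 7013) in CB4856-type and 1465 to 20932 CPM (median 8461) in N2-type lines. In the 57 lines of 1 type at *Y82E9BL.9* and *R155.4*, where *hsp-60* passed with 0.60, 9 molting genes were called lower in CB4856-type lines with log2 fold changes of -1.37 to -1.17 (adjusted p = 0.0125 to 0.0386, edgeR). They were the collagen genes *dpy-2*, *dpy-3*, *dpy-7*, *dpy-8* and *dpy-10* and *noah-1*, *noah-2*, *mlt-11* and *fbn-1*. That fit also called more genes outside the lists than the fit of all lines, most of them lower, as given below. Whether molting genes stand out from those calls was not tested. All 12 oocyte genes were positive by 0.003 to 0.12, and of 28 sperm genes 27 were positive with a median of 0.11. The summed level of the oocyte genes had medians of 645 and 615 CPM in CB4856-type and N2-type lines, and that of the sperm genes 529 and 512 CPM. The 6 vitellogenin genes, which encode yolk proteins, were all negative by 0.08 to 0.32, with larger standard errors of 0.37 to 0.50. Their mean log2 CPM was 7.67 in CB4856-type and 7.66 in N2-type lines. The smallest unadjusted p was 0.350 among the oocyte, 0.135 among the sperm and 0.384 among the vitellogenin genes (edgeR). The 7 male genes had summed levels of 2.61 to 159 CPM in CB4856-type and 3.11 to 77.8 CPM in N2-type lines. The first principal component of the lines held 29.8% of the variance of the 5000 most variable genes outside III, and no difference in its mean between the types was found (permutation p = 0.161, adjusted p = 0.268 over 5 measures). With it as a covariate, *hsp-60* had an adjusted p of 0.143.

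How far the type at *Y82E9BL.9* describes the region was read from other genes called between the parental strains without overlap, with a log2 difference of at least 2 and a mean of at least 5 CPM in the higher strain. A line took the type of the nearer parental mean of log2 CPM at each of them. On chromosome III 20 genes qualified. The type was the same as at *Y82E9BL.9* in 81 of 85 lines (95.3%) at *fbxa-36*, 41.95 kb away, where the exceptions were QX510, QX520, QX571 and QX589. It was the same in 77 lines (90.6%) at *trp-2*, *fbxa-60* and *fbxa-67*, 342 to 389 kb away, and in 66 to 71 lines (77.6% to 83.5%) at *C29F9.11*, *pals-24*, *pals-23*, *C29F9.2* and *sqst-5*, 1187 to 1225 kb away. *fbxa-30*, 59.5 kb away, had a lower share of 64 lines (75.3%), and 73 of the 85 lines took the CB4856 type there. To the right it was the same in 57 lines (67.1%) at *R155.4* and 39 lines (45.9%) at *C39B5.10*, 643 and 905 kb away. Series E had 2 of 11 lines with the same type at *R155.4*. The 5 genes farther along III had 38 to 50 lines (44.7% to 58.8%), within the range of 28 to 55 lines (32.9% to 64.7%) over 210 genes on other chromosomes. *hsp-60* lay between *fbxa-36* and *R155.4*, and no gene in between met the rule. These shares rest on expression and not on genotypes, so a line may be misplaced at a gene whose level also varies for other reasons.

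**Figure D5:**
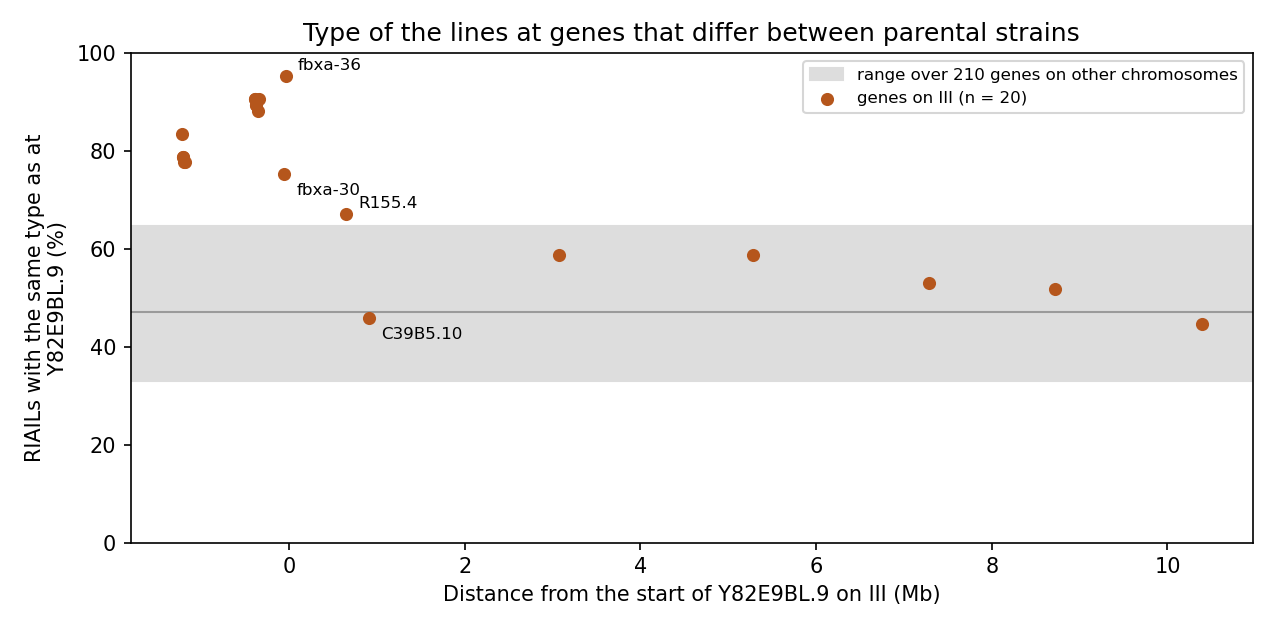
Share of the 85 RIAILs (percent) whose type at a gene on III is the same as at *Y82E9BL.9*, against the distance of that gene in Mb, with the range over 210 genes on other chromosomes in grey and their median as a line. The share is 95.3% at *fbxa-36*, 67.1% at *R155.4* and 45.9% at *C39B5.10*, and beyond 2 Mb it lies inside the grey range.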

How the data were processed

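RNA from 95 libraries of worms on Dox was measured by RNA-seq. Per the submitters' processing notes, reads were checked with FastQC and aligned to WBcel235 with STAR (version 2.73a), and the authors deposited 1 table of raw counts, with 46904 genes (46817 found in the WBcel235 annotation used here). The sources used here do not give the counting tool or its use of strand. All columns were matched to samples (0 were left without one), and 16622 genes had 0 counts throughout.

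The members and gene lists were chosen with earlier results of these data known. From the counts, CPM was computed, and types were compared with edgeR 4.0.16 in R 4.3.3 (TMM, filterByExpr, quasi-likelihood test, Benjamini-Hochberg over all genes), as were parental strains and the difference of both comparisons over 95 libraries. Alternatives used RLE size factors, no filter, DESeq2 1.42.0, limma-voom 3.58.1, library series or the first principal component as covariates, other thresholds, and lines (QX501 and QX505, QX571, those of the other type at *R155.4*) or libraries left out. Single values were compared by two-sided permutation tests with 100000 resamples (Python 3.11.15, scipy 1.17.1) on log2 CPM with a prior count of 2. On simulated counts, the comparison of types (15820 genes) found 74% of 1.5-fold and 96% of 2-fold changes, and that of strains (15718 genes) 3% and 20%. False calls were 9 (5.03%) for types and 1 (4.17%) for strains. Only 100 genes were changed at each fold, while 2524 genes were called between the strains. The shares found for strains may therefore not hold for these data.

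Batch numbers in the titles of 4 CB4856 and 4 N2 libraries were taken to pair them, although 2 of the 4 pairs (batches 1 and 2) lie in different library series. Their deviations from the strain means correlated by 0.68, 0.19, 0.087 and -0.51. The genes named were *Y82E9BL.9*, *hsp-60*, *hsp-6* and *Y22D7AL.10*, the 5 tested genes nearest to *hsp-60* on each side, among called genes with a mean CPM of at least 1 the 10 that were highest and the 10 that were lowest by log2 fold change within 2 Mb and the 5 with the smallest p in each direction on other chromosomes, and list members where a count was 5 or fewer. Counting intervals would cover counting error only and are not given, since lines are the replicates. No sequence is printed.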

Additional observations from a re-analysis of the deposited data

Results flagged for a closer look

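Over all genes, the interaction test in edgeR called 2725 of 17057 (16%), a share that mostly follows the difference between the strains. For 7 results, the difference between CB4856-type and N2-type lines differed from that between CB4856 and N2 by this test. All but *hsp-6* were named because they were called between the types, so their interaction draws on the values that selected them. Values are given as types minus strains on the log2 scale. The values were -0.58 for *hsp-6*, -2.84 for *fbxa-30*, 1.64 for *linc-24*, -1.73 for *R155.4*, 6.24 for *C14C6.12* (which rests on QX571), 2.40 for *ilys-2* and -0.84 for *algn-9*, with adjusted p of 0.0132, 0.00087, 0.00993, 0.0128, 0.0346, 0.0238 and 0.00219.

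In 7 of 72 groups of parental libraries, 1 library lay far from the others by Dixon's criterion, which chance meets in about 1 in 20 groups. *fbxa-36* and *C29F9.2* were high in CB4856 replicate 1 (24 CPM against 8.81 to 13.7 CPM, and 2.63 CPM against 1.17 to 1.38 CPM). *fbxa-11* was at 0.0435 CPM, a single count, in CB4856 replicate 5 and at 0 in the other CB4856 libraries. In N2, replicate 1 was high in *fbxa-67* (9.95 CPM against 5.41 to 5.85 CPM) and *algn-9* (39.1 CPM against 34.1 to 34.96 CPM), replicate 3 in *Y22D7AL.6* (1.26 CPM against 0.512 to 0.611 CPM) and replicate 4 in *ilys-2* (20.5 CPM against 3.60 to 5.65 CPM).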

How the results depend on the processing

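The 54 calls within 2 Mb were 44 to 79 under the other fits of the lines (47 in a window of 1 Mb). Leaving out library series, QX571 and the interaction with series were chosen after the data were seen, and the cause of each change below was not tested unless stated. *hsp-60* passed with limma-voom (0.33), series as a covariate (0.34), series E left out (0.44) and only the 57 lines of 1 type at *Y82E9BL.9* and *R155.4* (0.60). The fit of 57 lines left out 9 of the 11 lines of series E, so it overlaps the fit without that series. It also left out all 7 N2-type lines with *hsp-60* above the CB4856-type median. Those 57 lines gave 251 calls, 223 of them lower and 155 on other chromosomes. The 7 calls on other chromosomes were 14 without a filter on low counts or without series D, and 4 without series C or G. Calls over the gene lists, 0 in the report, were 2 with limma-voom, 12 in the 57 lines (9 molting genes, all lower, *hsp-60*, *nhr-80* and *dnj-13*), and 1 each with series as a covariate, without series B, D or E and without QX571.

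Signs turned only for genes that were not called. *Y22D7AL.4* was at -0.0015 with limma-voom, -0.17 in the 57 lines, -0.031, -0.053 and -0.071 without series A, E and F, and -0.036 without QX571. *Y22D7AL.10* was at -0.018 with series as a covariate, -0.022 in the 57 lines, and -0.011 and -0.021 without series A and F. *Y22D7AL.15* was at -0.12 in the 57 lines and at -0.0012 and -0.024 without series A and E, *Y22D7AL.16* at -0.0063 without series A, *cht-4* at -0.021 without series B, and *hsp-6* at 0.072 in the 57 lines and 0.036 without series E. Of 629 values for 36 results on named genes other than *hsp-60*, 564 kept direction and side of the threshold, 44 lost the call, 4 gained it and 17 turned. The 564 include 34 values each for thresholds of 5 and 20 CPM, which gave the same groups and so had to agree.

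Between the strains, the paired fit with the replicate block (8 libraries) called 1651 genes and the same 8 without the block 1565, with fewer samples than the 2524 calls of all 10, and *hsp-60* was at 0.66 and 0.62. Leaving out 1 library in turn gave 1569 calls (without N2 replicate 3) to 4603 (without N2 replicate 1), with *hsp-60* at 0.47 to 0.72 (adjusted p = 0.0282 to 0.0829, edgeR). *hsp-6* missed the threshold in both fits of 8. Low counts limit the 9 local calls with a mean CPM under 1.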
